A study of Mus musculus with 36 samples.

Results

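The neuronal splicing regulators described here are 10 genes, Rbfox1, Rbfox2, Rbfox3, Nova1, Nova2, Ptbp1, Ptbp2, Elavl2, Elavl3 and Elavl4, followed over 3 regions of the mouse brain and 2 treatments. Their members on the array were the features whose annotation gave 1 gene symbol and that symbol was one of the 10. At the gene level, 9 of the 10 genes had such a transcript cluster, 1 each, among 65956 clusters. The cluster of Elavl2 carried several symbols and was not used, so Elavl2 is described only from its exon-level probe sets. At the exon level the 10 genes held 386 of 719071 probe sets, of which 216 were probe selection regions (PSRs, stretches of exon or intron) and 170 were junction probe sets (JUC, placed across the joint of 2 exons). Male C57BL/6 mice of 8 weeks received intraperitoneal injections 2 times a day for 10 days. The DZP mice received diazepam, a benzodiazepine that strengthens GABA-A receptor currents, at 5 mg per ml by the labels, which give no dose per body weight. The Ctrl mice received the lipid emulsion Intralipid, the vehicle. Amygdala, hippocampus and cerebral cortex were punched from brain slices, so that 6 groups of 3 arrays were compared: DZP amygdala, Ctrl amygdala, DZP hippocampus, Ctrl hippocampus, DZP cortex and Ctrl cortex. All mice were wild type, and the 3 regions of a treatment came from the same 3 mice by the design text, and no label ties an array of one region to an array of another.

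A primary transcript can be joined in more than 1 way, and proteins that bind short motifs in it decide which exons are kept. The Rbfox proteins bind a UGCAUG motif, and their effect on an exon depends on whether they bind before or after it. Rbfox3 is the antigen known as NeuN, a common marker of mature neurons. The Nova proteins bind clusters of YCAY motifs and were found as targets of antibodies in a paraneoplastic motor disorder. Ptbp1 binds pyrimidine-rich stretches and represses many neuronal exons in progenitors and glia, and Ptbp2 takes its place in young neurons. The neuronal Elavl proteins, also called Hu proteins, bind U-rich and AU-rich stretches and act on splicing, stability and translation.

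The deposited values are signal intensities on a log2 scale, so that a difference of 1 is a change by a factor of 2. Array medians lay between 5.86 and 6.03 at the gene level and between 6.9 and 6.94 at the exon level. The 23 background probe sets averaged 4 to 4.16 on the 18 arrays, and all 9 gene-level members lay above that range on every array. Within a group, arrays correlated at 0.9932 to 0.9965 over all clusters. With 3 arrays in a group, the number of arrays limits the precision. By the design text a treatment had 3 mice, and the labels tell the 3 arrays of a group apart only by replicate number. The p-values measure the spread between these arrays. The mean of 9 neuron markers lay between 13.47 and 13.92 on all arrays. The mean of the 3 measured choroid plexus and ependyma markers was uneven between arrays of a group: it was 9.63, 9.66 and 6.36 in DZP hippocampus and 6.34, 10.55 and 8.47 in Ctrl hippocampus, and 5.9, 6.01 and 6.18 in DZP amygdala and 6.04, 6.3 and 10.45 in Ctrl amygdala. It stayed between 5.44 and 5.54 in cortex. A call is an adjusted p under 0.05 in a limma fit of all 18 arrays, with Benjamini-Hochberg adjustment over all features tested.

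The 5 genes Rbfox1, Rbfox3, Nova1, Ptbp2 and Elavl4 were called between regions at the gene level in at least 1 comparison, and the 150 bases before their annotated starts are shown here because they are the members that the regional results turn on. RefSeq gave 18 annotated starts for 9 of the 10 genes in build GRCm38.p6. Rbfox1 lies on chromosome 16, with windows at chr16:5884643-5884792 and chr16:7069685-7069834 on the plus strand. The windows of Rbfox3 at chr11:118761042-118761191, of Nova1 at chr12:46818768-46818917, of Ptbp2 at chr3:119783389-119783538 and of Elavl4 at chr4:110351912-110352061 are on the minus strand. The last is the outermost of 4 starts of Elavl4. The sequences are written 5′ to 3′ on the strand of the gene. Capitals mark matches, on either strand, to an E-box (CANNTG), a GC box (GGGCGG) or a CCAAT box (CCAAT). GC box matches may overlap each other.
Rbfox1, distal start: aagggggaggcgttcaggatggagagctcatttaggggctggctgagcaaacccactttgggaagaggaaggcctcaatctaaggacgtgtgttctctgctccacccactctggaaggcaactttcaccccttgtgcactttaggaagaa
Rbfox1, second start: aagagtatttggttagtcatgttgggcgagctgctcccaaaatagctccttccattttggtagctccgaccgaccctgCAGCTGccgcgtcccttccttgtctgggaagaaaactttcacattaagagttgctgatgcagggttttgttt
Rbfox3: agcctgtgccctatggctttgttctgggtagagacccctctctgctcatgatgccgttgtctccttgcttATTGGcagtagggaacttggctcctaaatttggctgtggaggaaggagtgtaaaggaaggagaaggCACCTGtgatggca
Nova1: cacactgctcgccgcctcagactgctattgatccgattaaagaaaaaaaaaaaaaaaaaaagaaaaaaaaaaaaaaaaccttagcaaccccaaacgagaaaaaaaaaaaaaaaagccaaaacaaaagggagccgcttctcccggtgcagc
Ptbp2: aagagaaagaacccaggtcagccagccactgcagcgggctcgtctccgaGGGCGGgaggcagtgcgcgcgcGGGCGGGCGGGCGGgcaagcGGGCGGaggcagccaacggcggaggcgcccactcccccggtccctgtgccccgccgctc
Elavl4, distal start: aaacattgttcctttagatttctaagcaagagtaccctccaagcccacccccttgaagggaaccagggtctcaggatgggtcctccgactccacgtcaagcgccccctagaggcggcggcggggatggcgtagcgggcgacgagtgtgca
The 6 windows shared no motif. Ptbp2 held 5 GC boxes and no other motif, with 76.7% G and C and 19 CpG. The second Rbfox1 start and the Rbfox3 start held 1 E-box each, and the Rbfox3 start also held 1 CCAAT box. The distal Rbfox1 start, the Nova1 start and the distal Elavl4 start held none of the 3 motifs. The 3 Elavl4 windows not printed held 1, 3 and 3 E-boxes and 1, 2 and 1 CCAAT boxes, the last 2 of them overlapping, so the window shown was the only one of that gene without a match. Nova1 had the lowest share of G and C of the 6, at 37.3%, with runs of A. Over all 32851 promoter windows of the same length, 47.7% held an E-box, 28.6% a GC box and 24.5% a CCAAT box, and the median share of G and C was 54%.

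Rbfox3 was lower in amygdala and in hippocampus than in cortex. Its signal was 12.36, 12.36 and 12.23 in DZP amygdala and 12.33, 12.49 and 12.22 in Ctrl amygdala. It was 12.55, 12.55 and 12.44 in DZP hippocampus and 12.65, 12.48 and 12.51 in Ctrl hippocampus. In cortex it was 13.01, 13.26 and 13.21 in DZP mice and 13.07, 13.28 and 13.21 in Ctrl mice. Every amygdala and hippocampus array lay below every cortex array. The difference between amygdala and cortex was -0.85 in DZP mice and -0.84 in Ctrl mice (SE 0.09, n = 3 arrays per group), with limma adjusted p of 5.4e-06 and 4.9e-06. Cortex was thus 1.8-fold and 1.79-fold higher than amygdala. The difference between hippocampus and cortex was -0.65 in DZP mice and -0.64 in Ctrl mice (limma adjusted p 9.2e-05 and 9.1e-05). Between amygdala and hippocampus it was -0.2 in both, and neither passed the test (limma adjusted p 0.2 and 0.22). An exon-level median was the median signal of a gene's exon-level probe sets on each array, and it follows the probe sets of middle rank. Over the 51 probe sets of Rbfox3, its amygdala to cortex difference was -1.47 in DZP mice and -1.27 in Ctrl mice. The median of the 51 single probe set differences was -0.9 and -0.86, near the gene-level values. The exon-level median was also lower in Ctrl amygdala than in Ctrl hippocampus, a difference of -0.53 (limma adjusted p 0.019), where 11.5% of all gene medians were called. In DZP mice the difference was -0.2 and not called (limma adjusted p 0.46). The median of the single probe set differences between these regions was -0.22 in DZP mice and -0.24 in Ctrl mice.

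Rbfox1 was lower in amygdala than in the other regions in Ctrl mice, with a smaller difference. Its signal was 12.66, 12.85 and 12.61 in DZP amygdala and 12.54, 12.61 and 12.48 in Ctrl amygdala. It was 13.01, 12.97 and 12.97 in DZP hippocampus and 13.12, 12.84 and 12.81 in Ctrl hippocampus. In cortex it was 12.84, 13.04 and 12.89 in DZP mice and 12.98, 13 and 13 in Ctrl mice. In Ctrl mice, all amygdala arrays lay below all arrays of the other regions, and in DZP mice the highest amygdala array lay just above the lowest cortex array. Amygdala minus cortex was -0.22 in DZP mice (limma adjusted p 0.095) and -0.45 in Ctrl mice (limma adjusted p 0.0017). Amygdala minus hippocampus was -0.28 in DZP mice (limma adjusted p 0.055) and -0.38 in Ctrl mice (limma adjusted p 0.0092). The call against Ctrl hippocampus was lost without Ctrl hippocampus replicate 1, where the difference was -0.28 (limma adjusted p 0.058). In DZP mice both differences passed the test without DZP amygdala replicate 2, at -0.29 and -0.35 (limma adjusted p 0.048 and 0.03). As exon-level medians, the calls in Ctrl mice were lost (limma adjusted p 0.09 and 0.23). The single probe set differences of Rbfox1 in Ctrl mice had a median of -0.64 against cortex (12 above 0, 45 below). Against hippocampus their median was -0.5 (19 above 0, 38 below). Rbfox2, the most widely expressed gene of the family, lay between 11.75 and 12.19 on all arrays and was called between no regions. Its difference nearest to a call was hippocampus minus cortex in DZP mice, at -0.21 (limma adjusted p 0.06).

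Nova1 differed most between hippocampus and cortex. Its signal was 9.96, 10.12 and 10.16 in DZP amygdala and 10.4, 10.57 and 9.8 in Ctrl amygdala. It was 9.41, 9.47 and 9.33 in DZP hippocampus and 9.39, 9.6 and 9.56 in Ctrl hippocampus. In cortex it was 10.9, 10.58 and 10.49 in DZP mice and 10.66, 10.66 and 10.82 in Ctrl mice. All hippocampus arrays lay below all arrays of the other regions, and the amygdala means lay between those of hippocampus and cortex. The Ctrl amygdala array at 9.8 was also the one with choroid plexus and ependyma markers at 10.45, whose part in the value was not tested. Hippocampus minus cortex was -1.25 in DZP mice and -1.19 in Ctrl mice (SE 0.15, limma adjusted p 2.4e-05 and 3.4e-05), so that cortex was 2.38-fold and 2.29-fold higher. Amygdala was higher than hippocampus by 0.67 in DZP mice and 0.74 in Ctrl mice (limma adjusted p 0.0087 and 0.004). Amygdala minus cortex was -0.58 in DZP mice (limma adjusted p 0.014) and -0.45 in Ctrl mice (limma adjusted p 0.058). The call in DZP mice was lost without DZP amygdala replicate 1 or DZP cortex replicate 1 (limma adjusted p 0.059 and 0.07), and the difference in Ctrl mice passed without Ctrl amygdala replicate 2, at -0.61 (limma adjusted p 0.013). As an exon-level median, amygdala minus hippocampus was 0.31 in Ctrl mice and not called (limma adjusted p 0.18), whereas amygdala minus cortex was -0.6 in Ctrl mice and called (limma adjusted p 0.004). The single probe set differences of Nova1 had medians of 0.82 (7 above 0, 3 below) and -0.59 (3 above 0, 7 below) in that order. Nova2, the paralog that is more abundant in neocortex and hippocampus in earlier work on mice, lay between 10.48 and 11.25 and was called between no regions.

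Ptbp2 ran the other way and was higher in amygdala than in cortex. Its signal was 11.47, 11.64 and 11.51 in DZP amygdala and 11.58, 11.71 and 11.55 in Ctrl amygdala. It was 11.6, 11.28 and 11.09 in DZP hippocampus and 11.34, 11.15 and 11.21 in Ctrl hippocampus. In cortex it was 10.87, 10.98 and 10.88 in DZP mice and 11.03, 11.08 and 10.9 in Ctrl mice. Every amygdala array and every hippocampus array lay above every cortex array. Amygdala minus cortex was 0.63 in DZP mice and 0.61 in Ctrl mice (SE 0.11, limma adjusted p 5e-04 and 0.00061), or 1.55-fold and 1.53-fold. Hippocampus minus cortex was 0.42 in DZP mice (limma adjusted p 0.015) and 0.23 in Ctrl mice (limma adjusted p 0.18). The call in DZP mice was lost without DZP hippocampus replicate 1, at 0.28 (limma adjusted p 0.07), and without DZP cortex replicate 1 or 3 (limma adjusted p 0.057 and 0.05). Amygdala minus hippocampus was 0.21 in DZP mice (limma adjusted p 0.24) and 0.38 in Ctrl mice (limma adjusted p 0.03). The call in Ctrl mice was lost without Ctrl amygdala replicate 1 or 2 or Ctrl hippocampus replicate 2 or 3 (limma adjusted p 0.063 to 0.12). As exon-level medians, hippocampus minus cortex in DZP mice was 0.23 and not called (limma adjusted p 0.3), and amygdala minus hippocampus in Ctrl mice was larger, at 0.67 (limma adjusted p 0.0019). The single probe set differences of Ptbp2 had medians of 0.3 (26 above 0, 9 below) and 0.35 (31 above 0, 4 below) in that order. Ptbp1 lay between 7.7 and 8.14 on all arrays and was called between no regions.

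Elavl4, the HuD protein of neurons, was lower in amygdala and hippocampus than in cortex. Its signal was 9.82, 9.72 and 9.85 in DZP amygdala and 9.88, 9.97 and 9.77 in Ctrl amygdala. It was 9.9, 9.83 and 9.56 in DZP hippocampus and 9.24, 9.47 and 9.82 in Ctrl hippocampus. In cortex it was 10.4, 10.44 and 10.31 in DZP mice and 10.21, 10.35 and 10.34 in Ctrl mice. All amygdala and hippocampus arrays lay below all cortex arrays. Hippocampus minus cortex was -0.62 in DZP mice and -0.79 in Ctrl mice (SE 0.12, limma adjusted p 0.0021 and 2e-04), and amygdala minus cortex was -0.59 and -0.43 (limma adjusted p 0.0027 and 0.024). The call between Ctrl amygdala and Ctrl cortex was lost without Ctrl amygdala replicate 1 or 3 or Ctrl cortex replicate 2 or 3 (limma adjusted p 0.063 to 0.09). It was also lost as an exon-level median, at -0.17 (limma adjusted p 0.63). The median of the 49 single probe set differences of Elavl4 was -0.44 (11 above 0, 38 below), near the gene-level value. Elavl3, or HuC, lay between 12.35 and 12.65 and was called between no regions. Elavl2, or HuB, was read as the median of its 56 exon-level probe sets. That median averaged 8.22 ± 0.13 in DZP amygdala and 8.44 ± 0.11 in Ctrl amygdala, 8.33 ± 0.19 in DZP hippocampus and 8.49 ± 0.19 in Ctrl hippocampus, and 8.34 ± 0.14 in DZP cortex and 8.2 ± 0.09 in Ctrl cortex (SD, n = 3 each), and no difference between regions passed the test. Of its single probe sets, JUC0400012726 was higher in amygdala than in cortex by 2.06 in DZP mice and 1.15 in Ctrl mice (limma adjusted p 3e-04 and 0.025). It was chosen after its values were seen, and 7 of 56 probe sets of Elavl2 were called for that difference in DZP mice and 4 in Ctrl mice, against 16.5% and 10.6% of all probe sets.

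**Figure D1:**
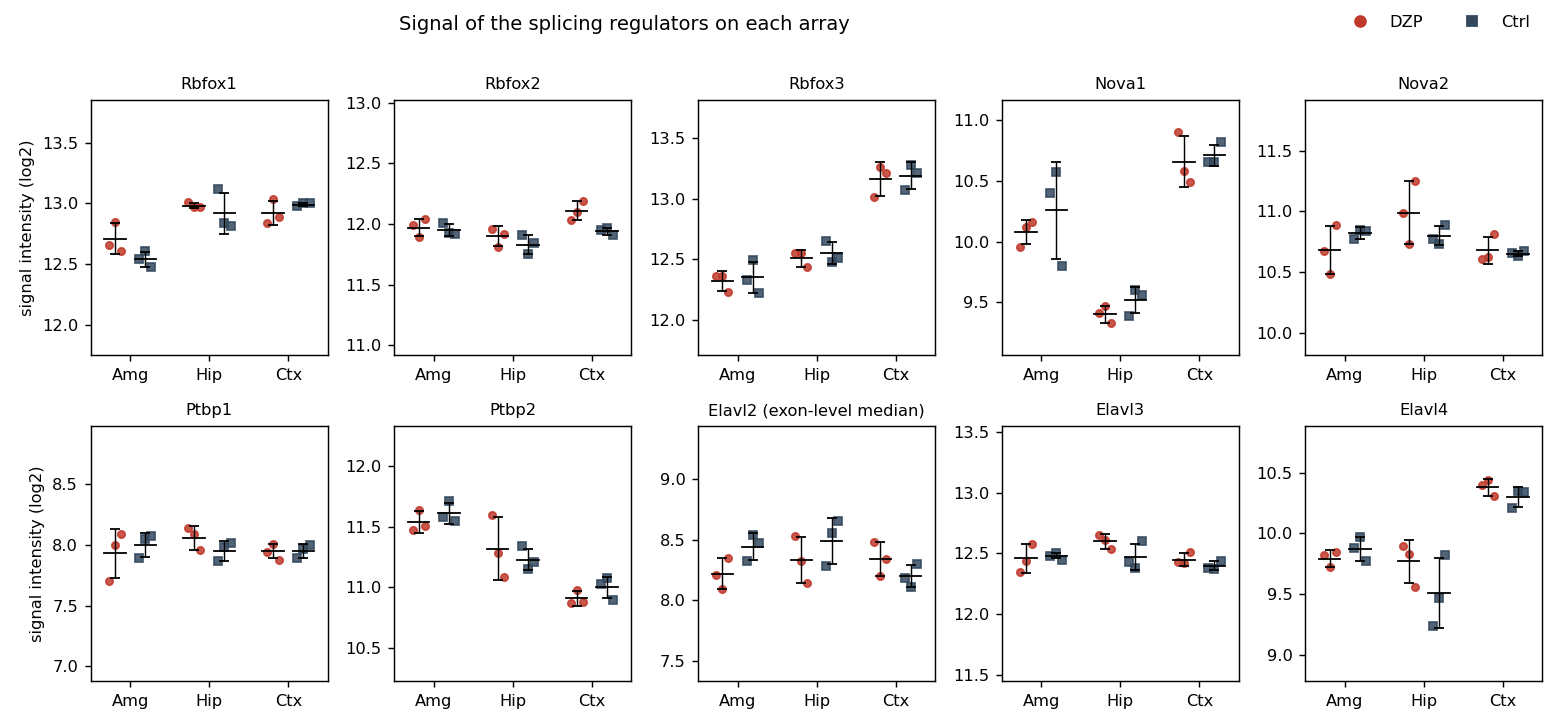
Signal intensity (log2) of each gene on each array, with DZP as circles and Ctrl as squares in amygdala (Amg), hippocampus (Hip) and cortex (Ctx). Lines and bars are the mean and SD of 3 arrays, every vertical axis spans the same number of log2 units, and Elavl2 is the median of its exon-level probe sets. Rbfox3 and Elavl4 are highest in cortex, Nova1 is lowest in hippocampus and Ptbp2 is lowest in cortex, in DZP and in Ctrl mice.

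Counted over the 9 genes, amygdala minus cortex was called for 4 in DZP mice and 4 in Ctrl mice, against 20.4% and 15.5% of all clusters. Amygdala minus hippocampus was called for 1 in DZP mice and 3 in Ctrl mice, against 10.7% and 10.3%. Hippocampus minus cortex was called for 4 in DZP mice and 3 in Ctrl mice, against 12.3% and 15%. Calls in both kinds of mice with the same sign were Rbfox3, Ptbp2 and Elavl4 for amygdala minus cortex, Nova1 for amygdala minus hippocampus, and Rbfox3, Nova1 and Elavl4 for hippocampus minus cortex. Those are 3, 1 and 3 of 9 genes, where 10.9%, 5.98% and 8.66% of all clusters did the same. All clusters include 33142 without a symbol, while the mean signals of the 9 genes stood between percentiles 76.4 and 96.4. The shares over all clusters are thus not those of genes of like signal. The 2 kinds of mice are separate animals, while comparisons that share a region share arrays and are given side by side only. In a bulk punch, fewer cells of a type and less RNA per cell cannot be told apart. Signals of cell type markers also differed between regions. The mean of the 9 neuron markers was 13.59 to 13.72 in DZP amygdala and 13.62 to 13.76 in Ctrl amygdala, 13.56 to 13.72 in DZP hippocampus and 13.47 to 13.62 in Ctrl hippocampus, and 13.83 to 13.92 in DZP cortex and 13.79 to 13.88 in Ctrl cortex. Of these markers, 4 of 9 were called lower and 1 higher in amygdala than in cortex in each kind of mice, and 3 of 9 in DZP mice and 4 of 9 in Ctrl mice were called lower in hippocampus than in cortex. All 6 measured oligodendrocyte markers were called higher in hippocampus than in cortex, with means of 11 to 11.23 in DZP hippocampus and 10.93 to 11.16 in Ctrl hippocampus against 9.71 to 10.02 in DZP cortex and 9.79 to 9.88 in Ctrl cortex. The mean of 7 striatum markers was 9.26 to 10.51 in DZP amygdala and 8.3 to 9.55 in Ctrl amygdala, and 7.42 to 7.64 in cortex. Their part in the regional differences was not tested.

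**Figure D2:**
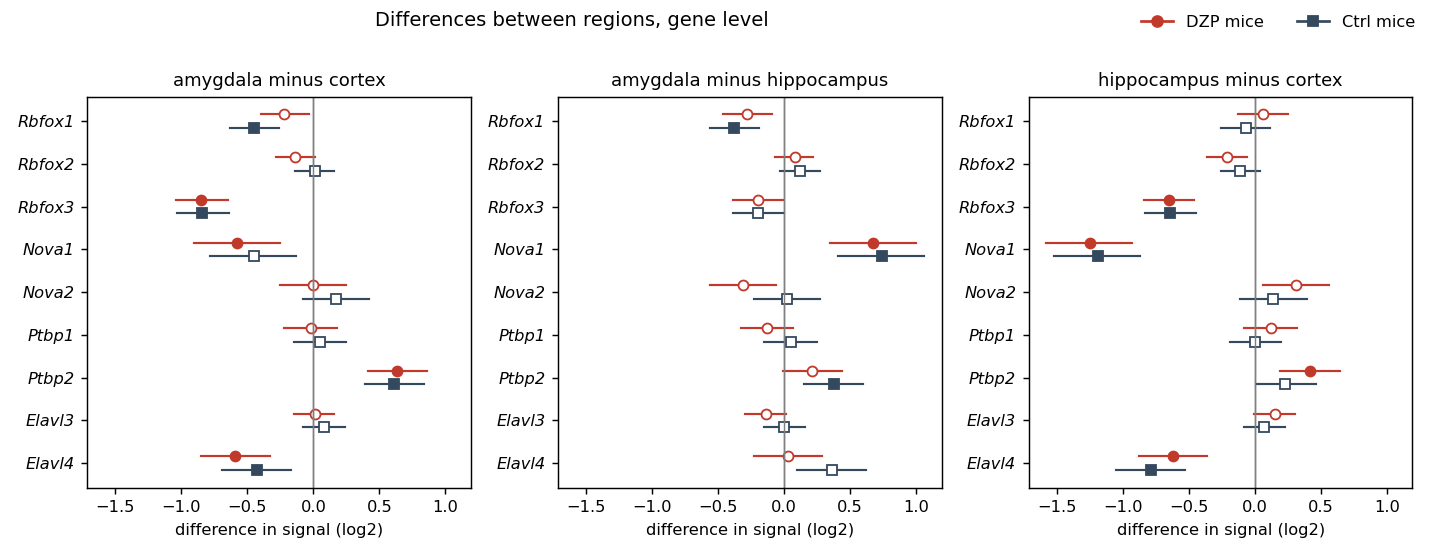
Difference in signal (log2) between regions for the 9 genes with a gene-level cluster, in DZP mice (circles) and Ctrl mice (squares). Points are differences of means of 3 arrays, bars are 95% confidence intervals of the limma fit, and filled points passed an adjusted p under 0.05. Rbfox3 and Elavl4 lie left of 0 against cortex in both kinds of mice and Ptbp2 lies right of 0 between amygdala and cortex.

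For the 4 genes whose group means spanned over 0.5 log2, the clusters with the most similar pattern over the 18 arrays were looked up among 12332 candidates. Rbfox3 was closest to Nfic (Pearson r 0.984), Kcnab3 (0.976) and Syt12 (0.974). Nova1 was closest to Mark1 (0.959), Ptchd1 (0.957) and Tmem196 (0.956), and Ptbp2 to Adgrb3 (0.957), Sf3b3 (0.957) and Akap11 (0.956). Elavl4 was closest to Lpgat1 (0.963), Arnt2 (0.958) and Rusc1 (0.956). The arrays share 3 regions, so these values describe a shared regional pattern.

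None of the 9 genes was called between DZP and Ctrl at the gene level. The differences between DZP and Ctrl lay between -0.18 and 0.16 in amygdala, between -0.11 and 0.26 in hippocampus and between -0.09 and 0.16 in cortex. Single arrays moved these limits. Without Ctrl amygdala replicate 3 the lowest difference in amygdala was -0.41, that of Nova1, and without DZP amygdala replicate 2 the highest was 0.09. In hippocampus the highest was 0.41, that of Elavl4, without Ctrl hippocampus replicate 3, and the lowest was -0.18 without Ctrl hippocampus replicate 1. In cortex the lowest was -0.18 without DZP cortex replicate 1 and -0.14 without Ctrl cortex replicate 3. No gene was called in any of these fits, and the smallest limma adjusted p among them was 0.14, without Ctrl hippocampus replicate 3. With all arrays, the smallest limma adjusted p was 0.59, 0.45 and 0.58, and 0%, 0.0728% and 0.0364% of all clusters were called. At an unadjusted p under 0.05 there were 0, 0 and 1 of 9, where 9.4%, 11.2% and 7.83% of all clusters were. The 1 was Rbfox2 in cortex, with 12.03, 12.1 and 12.19 in DZP mice and 11.95, 11.97 and 11.91 in Ctrl mice. These groups did not overlap, as was true of 14.6% of all clusters, and the difference was 0.16 (95% confidence interval 0.02 to 0.31, limma adjusted p 0.58). Elavl4 in hippocampus had the largest difference, 0.26 (95% confidence interval 0 to 0.52, limma adjusted p 0.45), with 9.9, 9.83 and 9.56 in DZP mice and 9.24, 9.47 and 9.82 in Ctrl mice, which overlapped. Rbfox1 in amygdala was 0.16 higher in DZP mice (95% confidence interval -0.02 to 0.35, limma adjusted p 0.59).

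The 95% confidence intervals of the gene-level values give the sizes that they leave possible. Over the 9 genes, the widest upper limits were a 1.27-fold rise in amygdala, a 1.43-fold rise in hippocampus and a 1.27-fold rise in cortex. The widest lower limits were a 1.41-fold fall in amygdala, a 1.36-fold fall in hippocampus and a 1.3-fold fall in cortex. The difference of the DZP effect between regions was also called for none of the 9 genes (smallest limma adjusted p 0.71 for amygdala against cortex, 0.55 for amygdala against hippocampus and 0.79 for hippocampus against cortex), where 0%, 0.0121% and 0.00455% of all clusters were. Arrays of equal replicate number were also averaged over the 3 regions, although no label ties them to 1 mouse. The differences between these averages lay between -0.11 and 0.09 and none was called (smallest limma adjusted p 0.62, 0% of all clusters). Their p-values rest on that matching. As exon-level medians, none of the 10 genes was called in amygdala, hippocampus or cortex (smallest limma adjusted p 0.53, 0.21 and 0.91, with 0.00469%, 0.0188% and 0% of all gene medians called). The hippocampal differences of Nova1 and Rbfox3 were larger on that scale than at the gene level. The median of Nova1 was 9.65, 9.56 and 9.66 in DZP hippocampus and 10.01, 10.1 and 10.32 in Ctrl hippocampus, a difference of -0.52 (95% confidence interval -0.81 to -0.23, limma adjusted p 0.21), against -0.11 at the gene level. The median of Rbfox3 was 11.71, 12.24 and 11.96 in DZP hippocampus and 12.38, 12.3 and 12.29 in Ctrl hippocampus, a difference of -0.35 (95% confidence interval -0.65 to -0.05, limma adjusted p 0.46), against -0.03 at the gene level. In both genes all DZP arrays lay below all Ctrl arrays, and the groups did not overlap for 13.7% of all gene medians. Most single probe sets did not move by that much. The median of their differences was -0.11 for Nova1 (3 above 0, 7 below) and -0.03 for Rbfox3 (21 above 0, 30 below), as at the gene level. In amygdala, all 7 striatum markers were higher in DZP mice than in Ctrl mice, with a median difference of 0.94 and no call (smallest limma adjusted p 0.17), and their part in the values of that region was not tested.

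**Figure D3:**
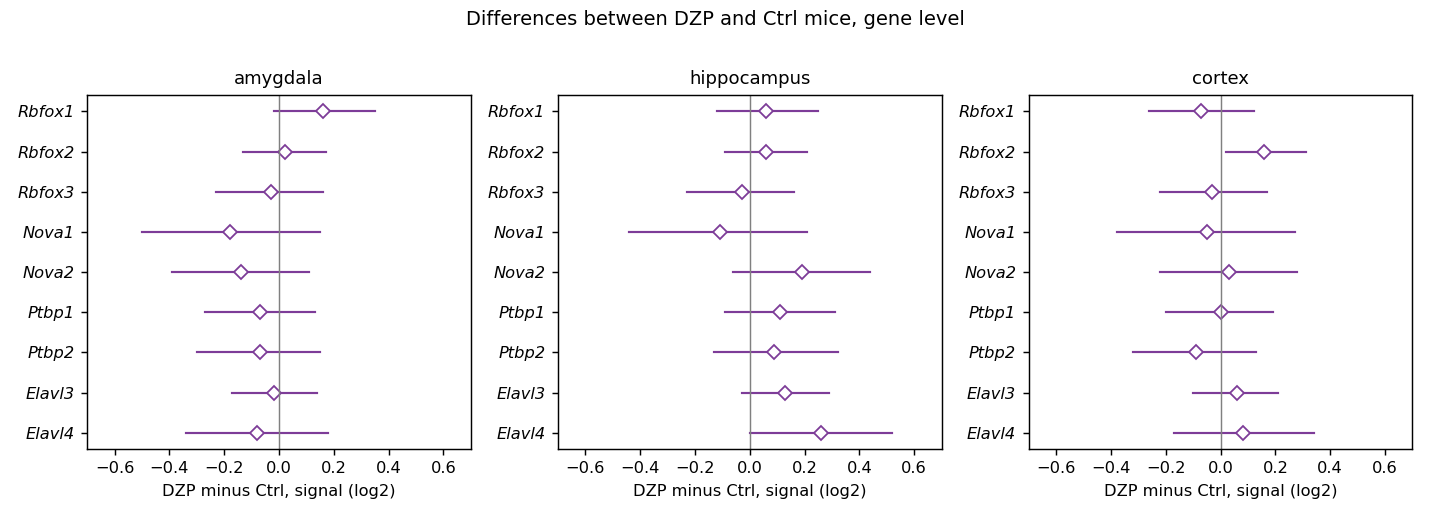
DZP minus Ctrl difference in signal (log2) for the 9 genes in each region. Points are differences of means of 3 arrays and bars are 95% confidence intervals of the limma fit. All points are open because none passed an adjusted p under 0.05, and the interval of Rbfox2 in cortex runs from 0.02 to 0.31.

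The transcripts of these regulators are themselves spliced, and the exon-level probe sets allowed this to be followed. Usage was defined on each array as the log2 signal of a probe set minus the log2 signal of its gene. A change in the level of the whole gene then cancels where the probe set follows the gene. A probe set near background need not follow it, and its usage can move against the gene. A negative usage means that the probe set is dimmer than the gene value, and its size is read only between arrays. Usage was tested for 330 member probe sets among 529518 in all, leaving out Elavl2. Dim probe sets were kept, so the counts of calls include them. Between amygdala and cortex, 71 were called in DZP mice (21 higher, 50 lower) and 33 in Ctrl mice (18 higher, 15 lower), or 21.5% and 10% of the members against 9.66% and 3.37% of all probe sets. Over all probe sets 4.45% were higher and 5.2% lower in DZP mice, and 1.68% and 1.69% in Ctrl mice. Between amygdala and hippocampus, 8 were called in DZP mice and 29 in Ctrl mice, or 2.42% and 8.79% against 1.11% and 2.03%. Between hippocampus and cortex, 29 were called in DZP mice and 20 in Ctrl mice, or 8.79% and 6.06% against 3.41% and 2.78%. Rbfox1 held many of these calls. It held 25 in DZP mice and 21 in Ctrl mice between amygdala and cortex. Between amygdala and hippocampus it held 8 and 20, and between hippocampus and cortex 13 and 7. Calls in both kinds of mice with the same sign numbered 22, 6 and 8 in that order, or 6.67%, 1.82% and 2.42% of the members against 2.2%, 0.597% and 1.17% of all probe sets. All probe sets include those of dim genes, so these shares too are not those of genes of like signal. Junction probe sets moved as a group in some comparisons. The median difference over the members' junctions was -0.29 between DZP amygdala and DZP cortex, where it was -0.08 over all junctions and -0.06 over the members' PSRs.

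Most of the calls shared by both kinds of mice belonged to Rbfox1. Of its 57 probe sets, 14 were called in both between amygdala and cortex (7 higher, 7 lower), 6 between amygdala and hippocampus (5 higher, 1 lower) and 7 between hippocampus and cortex (4 higher, 3 lower). In Ctrl mice alone the counts were 21, 20 and 7, and in DZP mice 25, 8 and 13. The shared calls fell into sets with different regional orders.

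The first set stood higher in amygdala than in cortex, and its probe sets are numbered next to each other on the array. Junction JUC1600000248 had usage of 4.39, 4.1 and 3.94 in DZP amygdala and 4.39, 4.39 and 4.46 in Ctrl amygdala. It had 3.75, 3.91 and 3.78 in DZP hippocampus and 3.46, 3.47 and 3.75 in Ctrl hippocampus. In cortex it had 2.82, 2.83 and 2.43 in DZP mice and 2.41, 2.55 and 2.39 in Ctrl mice. The 3 regions did not overlap, in the order amygdala, hippocampus, cortex. Amygdala minus cortex was 1.45 in DZP mice and 1.96 in Ctrl mice (SE 0.13, limma adjusted p 5.5e-05 and 5.1e-06), and hippocampus minus cortex was 1.12 and 1.1 (limma adjusted p 0.00043 and 0.00041). PSR1600000483 had usage of -4.29, -3.69 and -3.82 in DZP amygdala and -4.09, -3.89 and -3.84 in Ctrl amygdala. It had -5.1, -4.8 and -4.94 in DZP hippocampus and -5.01, -5.35 and -4.83 in Ctrl hippocampus. In cortex it had -5.3, -5.54 and -5.76 in DZP mice and -6.05, -5.46 and -5.79 in Ctrl mice. All amygdala arrays lay above all others. Within each kind of mice all hippocampus arrays lay above all cortex arrays. Only across treatments did these regions overlap, with -5.35 in Ctrl hippocampus and -5.3 in DZP cortex. Amygdala minus cortex was 1.6 in DZP mice and 1.83 in Ctrl mice (limma adjusted p 0.00044 and 0.00017), a usage 3.03-fold and 3.55-fold higher. PSR1600000481 differed by 1.36 and 2.1 between the same regions (limma adjusted p 0.006 and 0.00048). Its neighbours PSR1600000484, PSR1600000485 and JUC1600000247, chosen after their values were seen, differed by 0.96 to 1.37 in DZP mice and by 1.48 to 1.75 in Ctrl mice, all called. PSR1600000482 was called in Ctrl mice only, at 0.64 (limma adjusted p 0.049), and was 0.43 in DZP mice (limma adjusted p 0.11). The difference between the 2 kinds of mice was tested and called for none of the 330 probe sets (smallest limma adjusted p 0.53, 0% of all probe sets called). The same held between amygdala and hippocampus (0.45, 0%) and between hippocampus and cortex (0.14, 0.000189%).

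The second set was lowest in hippocampus. PSR1600000490 had usage of -2.07, -2.31 and -2.37 in DZP amygdala and -2.65, -2.1 and -2.08 in Ctrl amygdala. It had -3.44, -3.45 and -3.52 in DZP hippocampus and -3.45, -3.6 and -3.35 in Ctrl hippocampus. In cortex it had -1.65, -1.46 and -1.78 in DZP mice and -1.54, -1.53 and -1.79 in Ctrl mice. The 3 regions did not overlap, in the order cortex, amygdala, hippocampus. Hippocampus minus cortex was -1.84 in DZP mice and -1.85 in Ctrl mice (SE 0.15, limma adjusted p 2.2e-05 and 1.9e-05), so that usage in cortex was 3.58-fold and 3.6-fold higher. Amygdala minus hippocampus was 1.22 and 1.19 (limma adjusted p 0.0011 and 0.001). Before the gene value was subtracted, its signal was 9.57, 9.52 and 9.45 in DZP hippocampus and 9.66, 9.24 and 9.46 in Ctrl hippocampus, against 11.18, 11.57 and 11.12 in DZP cortex and 11.44, 11.48 and 11.2 in Ctrl cortex. The gene value of Rbfox1 was not called between these regions, so the difference lay in the probe set.

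Junction JUC1600000269 followed the same order. Its usage was 1.9, 1.63 and 1.83 in DZP amygdala and 1.63, 1.79 and 1.91 in Ctrl amygdala. It was 0.27, 0.45 and 0.27 in DZP hippocampus and 0.78, 0.54 and 0.85 in Ctrl hippocampus. In cortex it was 2.61, 2.73 and 3.02 in DZP mice and 2.5, 2.76 and 2.69 in Ctrl mice. Hippocampus minus cortex was -2.46 in DZP mice and -1.93 in Ctrl mice (SE 0.13, limma adjusted p 1.5e-06 and 5e-06), or 5.49-fold and 3.8-fold more usage in cortex. JUC1600000270 differed by -2.67 and -1.58 (limma adjusted p 6.2e-05 and 0.003). The difference of PSR1600000490 between amygdala and cortex was smaller, at -0.62 in DZP mice and -0.66 in Ctrl mice (limma adjusted p 0.02 and 0.027), and that call was lost without any 1 of 4 DZP arrays (DZP amygdala replicate 2 or 3, DZP cortex replicate 1 or 2) or 3 Ctrl arrays (Ctrl amygdala replicate 1, Ctrl cortex replicate 1 or 2).

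Another set was lower in amygdala. JUC1600000262 was lower in amygdala than in cortex, with differences of -1.21 in DZP mice and -1.24 in Ctrl mice (limma adjusted p 0.011 and 0.016), and JUC1600000265 differed by -0.72 and -1.01 (limma adjusted p 0.0026 and 0.00031). The call of JUC1600000262 in Ctrl mice was lost without Ctrl amygdala replicate 2 or 3 or Ctrl cortex replicate 1 or 3. PSR1600000507, PSR1600000509 and PSR1600000514 were lower, with differences of -0.38 to -0.76 in DZP mice (limma adjusted p 0.0055 to 0.045). In Ctrl mice the differences were -0.5 to -0.71 (limma adjusted p 0.0045 to 0.026). PSR1600000498 was higher in amygdala than in hippocampus, by 0.83 and 1.06 (limma adjusted p 0.043 and 0.0082), and than in cortex, by 0.67 and 0.74 (limma adjusted p 0.032 and 0.038). The annotation used here gives each probe set its gene and number but not its place, so no exon is named.

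**Figure D4:**
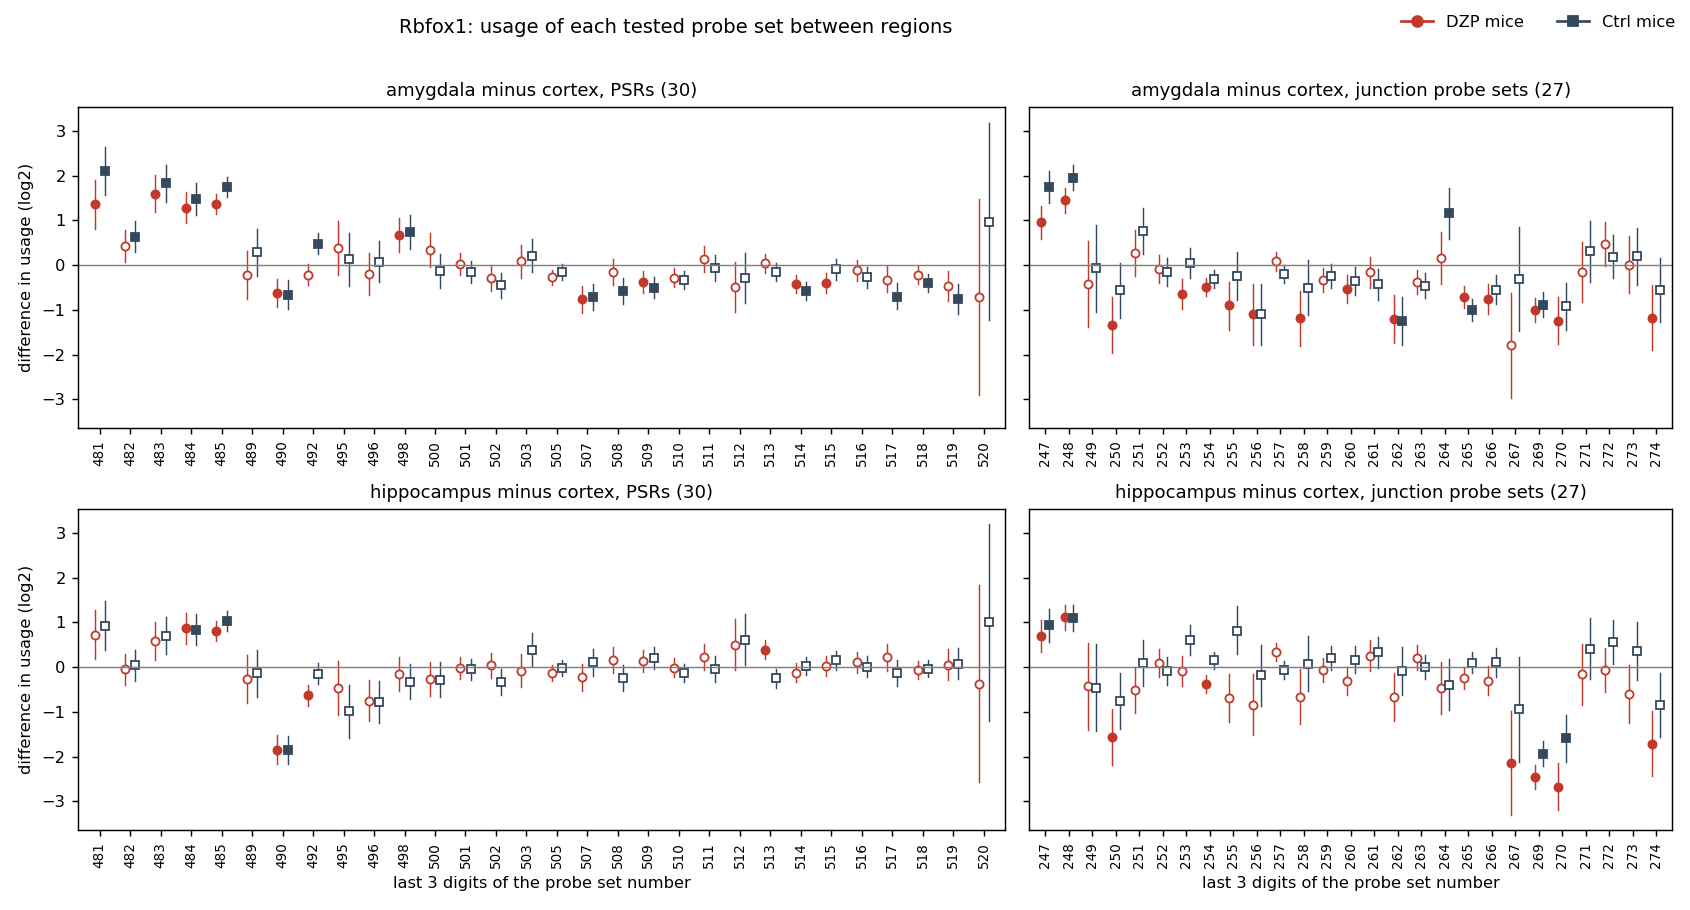
Difference in usage (log2) for each tested Rbfox1 probe set between amygdala and cortex (top) and between hippocampus and cortex (bottom), with PSRs left and junction probe sets right, in order of probe set number. Circles are DZP mice, squares Ctrl mice, bars 95% confidence intervals of the limma fit, and filled points passed an adjusted p under 0.05. PSRs 481 to 485 and junctions 247 and 248 lie above 0 in amygdala, and PSR 490 with junctions 269 and 270 lies furthest below 0 in hippocampus among the points filled for both kinds of mice.

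**Figure D5:**
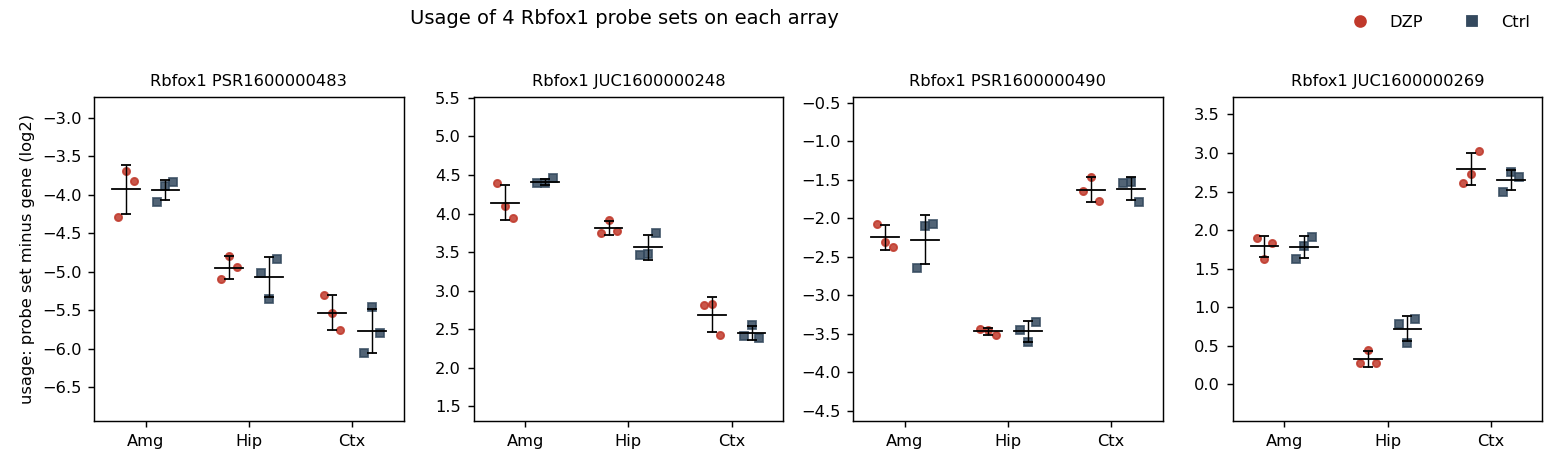
Usage (log2 signal of the probe set minus log2 signal of Rbfox1) on each array for 2 PSRs and 2 junction probe sets, with DZP as circles and Ctrl as squares in amygdala (Amg), hippocampus (Hip) and cortex (Ctx). Lines and bars are the mean and SD of 3 arrays. PSR1600000483 and JUC1600000248 are highest in amygdala, and PSR1600000490 and JUC1600000269 are lowest in hippocampus.

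Elavl4 was the second gene with calls shared by both kinds of mice. Of its 49 probe sets, 12 in DZP mice and 6 in Ctrl mice were called between amygdala and cortex, with 5 in both. These 5 are named because they were called in both, which was seen in their values. PSR0400026106 and PSR0400026108 were lower in amygdala, with differences of -0.77 and -0.97 in DZP mice (limma adjusted p 0.0024 and 0.0036). In Ctrl mice the differences were -0.65 and -0.69 (limma adjusted p 0.01 and 0.036). PSR0400026122 and PSR0400026126 were higher, by 1.07 each in DZP mice (limma adjusted p 0.0073 and 0.014). In Ctrl mice they were higher by 0.84 and 1.09, nearer to the threshold (limma adjusted p 0.041 and 0.023). PSR0400026106 had usage of 0.22, 0.47 and 0.44 in DZP amygdala and 0.45, 0.51 and 0.34 in Ctrl amygdala, against 1.1, 1.12 and 1.23 in DZP cortex and 1.18, 1 and 1.08 in Ctrl cortex, with no overlap. The fifth, PSR0400026130, averaged a signal of 3.32, under the background range, and is not read further. Between hippocampus and cortex the same 4 PSRs ran in the same directions, with all 4 called in Ctrl mice and none in DZP mice (limma adjusted p 0.055 to 0.14).

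For Nova1, junction JUC1200006478 and PSR1200011703 were lower in amygdala than in cortex, 2 of its 10 probe sets. The differences were -0.59 and -0.62 in DZP mice (limma adjusted p 0.016 and 0.019). In Ctrl mice they were -0.82 and -0.58 (limma adjusted p 0.0041 and 0.045). The junction had usage of 5.67, 5.59 and 5.7 in DZP amygdala and 5.18, 5.41 and 5.41 in Ctrl amygdala, against 6.14, 6.22 and 6.38 in DZP cortex and 6, 6.29 and 6.17 in Ctrl cortex. For Ptbp1, 1 of 53 probe sets was called in both, JUC1000003244, higher in amygdala than in cortex by 1.36 in DZP mice and 1.68 in Ctrl mice, at a mean signal of 5, close to background. A brighter Ptbp1 junction, JUC1000003250, had usage of 3.19, 2.89 and 2.93 in DZP amygdala and 3.53, 3.32 and 3.72 in Ctrl amygdala. It had 2.74, 2.71 and 4.4 in DZP hippocampus and 6.01, 5.32 and 4.69 in Ctrl hippocampus, and 5.19, 4.67 and 5.41 in DZP cortex and 4.76, 4.8 and 4.79 in Ctrl cortex. It was called lower in DZP amygdala than in DZP cortex, a difference of -2.09 (limma adjusted p 0.007), while in Ctrl mice the difference was -1.26 (limma adjusted p 0.11).

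Rbfox3 had 12 of 51 probe sets called between amygdala and cortex in DZP mice and 2 in Ctrl mice, and none in both. Rbfox2 had 4 of 43 and 0, Ptbp2 4 of 35 and 0, Elavl3 3 of 23 and 0, and Nova2 1 of 9 and 0. The share called over all probe sets was also higher in DZP mice for that pair of regions, as given above.

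None of the 330 member probe sets was called for usage between DZP and Ctrl. The smallest limma adjusted p was 0.42 in amygdala, 0.082 in hippocampus and 0.7 in cortex, and 0%, 0.0304% and 0% of all probe sets were called. At an unadjusted p under 0.05 there were 33, 67 and 22 of 330, where 7.99%, 12.8% and 5.86% of all probe sets were. All probe sets include those of dim genes, and probe sets of 1 gene share its subtracted value, so these shares are given side by side only. The members' share was near that of all probe sets in cortex and in amygdala and was higher in hippocampus. There the median difference was -0.23 over the members' junctions, -0.03 over all junctions and 0.03 over the members' PSRs. Over the members' junctions it was -0.05 in amygdala and 0.1 in cortex. The 3 nearest to a call in hippocampus, chosen after their values were seen, were junctions of Ptbp2 and Ptbp1 and a PSR of Rbfox1. Ptbp2 JUC0300011659 had usage of 1.72, 1.47 and 1.48 in DZP hippocampus and 2.28, 2.32 and 2.33 in Ctrl hippocampus, a difference of -0.75 (limma adjusted p 0.082). Ptbp1 JUC1000003250, with the values above, differed by -2.06 (limma adjusted p 0.092). Rbfox1 PSR1600000513 had 3.33, 3.3 and 3.15 in DZP hippocampus and 2.76, 2.77 and 2.75 in Ctrl hippocampus, a difference of 0.5 (limma adjusted p 0.092). None of these groups overlapped, as was true of 15.5% of all probe sets.

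The hippocampal count rested on 1 array. Without DZP hippocampus replicate 3, 19 of the 330 probe sets were called (2 higher, 17 lower, 10 of them junctions), or 5.76%, where 2.28% of all probe sets were. Choroid plexus and ependyma markers were at 6.36 on that array and at 9.63 and 9.66 on the other DZP hippocampus arrays, and their part in the count was not tested. Leaving out any other array gave 0 calls among the members in all 3 regions. The signal of the 386 probe sets, Elavl2 included, was called for none between DZP and Ctrl (smallest limma adjusted p 0.37 in amygdala, 0.057 in hippocampus and 0.67 in cortex, with 0.000278%, 0.0533% and 0% of all probe sets called).

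Further lists place these genes among other splicing factors. No gene of the lists was called between DZP and Ctrl in any region. Of 25 related neuronal and muscle splicing regulators, 7 were higher and 4 lower in amygdala than in cortex in DZP mice, and 7 and 2 in Ctrl mice, where 20.4% and 15.5% of all clusters were called in either direction. Celf6, of the CUG-binding family, was higher in amygdala by 0.78 in DZP mice and 0.82 in Ctrl mice (limma adjusted p 7.5e-07 and 3.4e-07), and Khdrbs3, or SLM2, was lower in amygdala than in hippocampus, with differences of -1.1 and -1.01 (limma adjusted p 6.3e-06 and 1.2e-05). Celf3 was higher in hippocampus than in cortex by 0.74 and 0.58 (limma adjusted p 2.6e-05 and 0.00027). Of 12 measured SR proteins, which mostly promote the use of exons, 4 were higher in amygdala than in cortex in DZP mice and 3 in Ctrl mice, and none was lower, beside the same 20.4% and 15.5%. Srsf9 was higher by 0.44 and 0.65 (limma adjusted p 0.0053 and 2e-04), and the list's median was 0.2 and 0.19 where the median cluster moved by 0.08 and 0.03. Of 19 measured hnRNP proteins, 4 were higher and 1 lower in amygdala than in cortex in each kind of mice, where the calls over all clusters in either direction were again 20.4% and 15.5%. Hnrnpc was higher by 0.43 and 0.52 (limma adjusted p 0.0014 and 0.00028).

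The last list held transcripts known as targets of these regulators. Of 13 measured, 2 were higher and 4 lower in amygdala than in cortex in DZP mice, and 2 and 3 in Ctrl mice, against 20.4% and 15.5% of all clusters in either direction. Dab1, a reelin signalling adaptor spliced under Nova2 control in mice, was lower in amygdala, with differences of -0.91 and -1.08 (limma adjusted p 0.00056 and 9.5e-05), and Cacna1c, a calcium channel subunit, was higher by 0.67 and 0.64 (limma adjusted p 1e-04 and 0.00013). Snap25, a vesicle fusion protein, was lower, with differences of -0.55 and -0.45 (limma adjusted p 0.00016 and 0.00089). Camk2b was lower in amygdala than in hippocampus, with differences of -0.87 and -0.95 (limma adjusted p 1.1e-05 and 3.7e-06). Of their 1129 probe sets, 15.9% in DZP mice and 6.2% in Ctrl mice were called for usage between amygdala and cortex, against 9.66% and 3.37% of all probe sets. Between amygdala and hippocampus it was 1.95% and 3.9%, against 1.11% and 2.03%, and between hippocampus and cortex 5.76% and 5.76%, against 3.41% and 2.78%. None was called for usage between DZP and Ctrl in any region.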

How the data were processed

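RNA from 3 regions of DZP and Ctrl mice was measured on 18 Affymetrix Mouse Transcriptome Arrays, each giving a gene-level and an exon-level table. The deposited values are log2 signal intensities that the authors made with Affymetrix Expression Console 1.4.1, per the submitters' processing notes. The summarisation, the normalization between arrays and the genome build are not given in the sources used here, and the values were used without further scaling. Control probe sets were left out (6732 at the gene level, 6607 at the exon level). Groups were taken from the labels. Gene symbols came from the array annotation, which gave 1 symbol to 30638 clusters, several to 2176 and none to 33142. Usage was the log2 signal of a probe set minus that of its gene on the same array.

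The 6 groups entered 1 limma fit (limma 3.58.1 under R 4.3.3), which took all arrays as independent. Adjustment of p-values followed Benjamini and Hochberg over all features, with a threshold of 0.05. The scripts were tested on simulated data. All 10 members are named. Of each other list, the 3 genes of smallest adjusted p among those called in a comparison could be named, and of member probe sets up to 3 per comparison and direction with the largest called usage difference. Likeness was Pearson's r over 18 arrays for genes whose group means spanned over 0.5, among clusters with a mean above 7. The members and lists were chosen with earlier results of these data known. The alternatives were the methods' one-way ANOVA, array weights, centring, filters on dim features, other denominators, a replicate block, only the groups compared, and leaving out each array. Exon-level medians of a gene, usage centred by kind of probe set, and PSRs tested alone were added after seeing the data. Promoter sequences are from RefSeq, GRCm38.p6.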

Additional observations from a re-analysis of the deposited data

How the results depend on the processing

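No member difference reversed its direction once called, and the 27 differences between DZP and Ctrl passed the threshold under no alternative, although 12 of them, of at most 0.16 in size, changed sign under at least 1. The number of members called at the gene level was within 1.5 times the main count except in the following cases. Between amygdala and cortex in Ctrl mice, the count of 4 became 2 by the methods' ANOVA with their fold of 1.5. Between amygdala and hippocampus in Ctrl mice, the count of 3 became 1 by that test, 0 by the ANOVA with Benjamini-Hochberg adjustment and 1 with only the arrays of the groups compared. In DZP mice, the count of 1 became 2 once arrays were centred on their medians and 2 with only clusters at or above the median cluster. It also became 2 with the replicate number as a block. Between hippocampus and cortex in DZP mice, the count of 4 became 2 by the ANOVA with Benjamini-Hochberg adjustment. Without single arrays these counts ranged from 3 to 5, 2 to 3, 1 to 2 and 3 to 5 in the same order, and the cause was not tested.

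The counts of probe sets called for usage moved more. With only the arrays of the groups compared, which leaves fewer arrays to estimate the spread, they were 31 of 330 in DZP mice and 9 in Ctrl mice between amygdala and cortex, 0 and 2 between amygdala and hippocampus, and 3 and 4 between hippocampus and cortex. With PSRs alone, which are fewer, they were 37 in DZP mice between amygdala and cortex, 19 in Ctrl mice between amygdala and hippocampus, and 14 in DZP mice and 13 in Ctrl mice between hippocampus and cortex. With the exon-level median as denominator they were 4 in DZP mice between amygdala and hippocampus and 13 in Ctrl mice between hippocampus and cortex. Without single arrays the counts ranged from 36 to 54 in DZP mice and 16 to 22 in Ctrl mice between amygdala and cortex, from 3 to 7 and 11 to 20 between amygdala and hippocampus, and from 12 to 43 and 11 to 18 between hippocampus and cortex. Between DZP and Ctrl hippocampus they ranged from 0 to 19, with the 19 without DZP hippocampus replicate 3.

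Arrays with the same number did not deviate together throughout (r from -0.16 to 0.42 in 18 pairs of regions, 6 of them over 0.1, and from -0.1 to 0.2 in 9 pairs of treatments, 2 over 0.1). Whether equal numbers in different regions mark the same mouse is not given by the labels, and these correlations do not settle it. With the replicate number as a block, 20 probe sets were called for usage between amygdala and cortex in Ctrl mice and 5 between amygdala and hippocampus in DZP mice, and 2 members were called between amygdala and hippocampus in DZP mice. All other counts of calls under the block were within 1.5 times the main count.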
